A study of Mus musculus with 6 samples.

Results

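Gene deserts are long stretches of chromosome without protein-coding genes. In mouse prostate basal stem cells, 915 of 6502 deposited ATAC-seq regions (14.1%, exact 95% interval 13.2 to 14.9) lay in such stretches. ATAC-seq marks open chromatin by cutting it with a transposase. A region was taken as a member when its centre fell outside every protein-coding gene span (RefSeq, GRCm38.p6) and over 100 kb from every protein-coding gene end. Its width and its signal played no part in the choice. The libraries were 3 from naive prostates, labelled WT and control, and 3 from inflamed prostates, labelled POET3 and inflamed. POET3 is a transgenic strain whose prostate expresses ovalbumin. To set off inflammation, OT-1 splenocytes, whose T cells recognise ovalbumin, were activated and then transferred, and prostates were taken after 7 days. The extraction protocol names POET3 mice for both conditions, whereas the genotype label splits them, so genotype and inflammation cannot be told apart. Cells were sorted fresh for Sca-1 and CD49f, both present on basal stem cells, and against CD45 (leukocytes) and CD31 (endothelium). Whether animals were pooled is not given in the sources used here.

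The deposited list gives a chromosome, a start and an end for each region and no value per library. It was read as a list of regions that differed between the conditions, because its name contains "diff" and edgeR is among the tools named, but no source gives the direction. So no gain or loss of accessibility can be assigned to a region, the depth is unknown, and no replicate error exists. Apart from a single row elsewhere, regions had 1 of 2 fixed widths, 0.143 kb (narrow) and 0.451 kb (wide), which no source explains. Deserts held 391 of the 3210 narrow regions (12.2%, interval 11.1 to 13.4) and 524 of the 3291 wide ones (15.9%, 14.7 to 17.2). Intervals below are exact 95% intervals and cover counting error only.

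Distal enhancers can lie very far from the promoter they act on, and many gene deserts border genes for developmental transcription factors and carry such enhancers. A listed region in a desert does not name its target, and the genes given here are those that bound the desert. Long non-coding RNAs and microRNAs are also made from deserts, because the definition used here leaves out protein-coding genes only. A microRNA finds its targets mainly through its seed, bases 2 to 8 of the mature strand.

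Several listed desert regions lay beside microRNA genes known from epithelial cells, whose mature sequences are shown here with the seed in capitals (RefSeq, GRCm38.p6). These microRNAs were picked once the distances to the regions were known. The pairs miR-221-3p with miR-222-3p, and miR-99a-5p with miR-100-5p, each share a seed.
miR-205-5p: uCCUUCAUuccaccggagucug
miR-221-3p: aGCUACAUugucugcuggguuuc
miR-222-3p: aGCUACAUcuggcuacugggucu
miR-99a-5p: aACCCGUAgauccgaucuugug
miR-100-5p: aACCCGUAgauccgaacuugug
let-7c-5p: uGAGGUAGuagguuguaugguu
miR-125b-5p: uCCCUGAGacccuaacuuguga

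Mir205, whose product is abundant in basal epithelia and represses the mesenchymal factors Zeb1 and Zeb2, had a wide region (chromosome 1, 193508194 to 193508644) inside its host gene Mir205hg. That region was centred 0.922 kb from the hairpin, on its upstream side, since the hairpin is read from the minus strand. The same desert, between Camk1g and Plxna2, held another wide region 61.3 kb from the hairpin and narrow regions 365 and 460 kb from it. Mir221 and Mir222, which repress the cell cycle inhibitor p27, lay on chromosome X in a desert with 5 regions. All 5 were wide, as were 22 of the 26 desert regions on X. The closest of the 5 (19150605 to 19151055) was 3.90 kb from Mir222 and 4.49 kb from Mir221. In the desert between Usp25 and Cxadr, Mir99a and Mirlet7c-1 had a wide region 5.01 and 5.74 kb away (chromosome 16, 77593735 to 77594185), and Mir125b-2 lay 52.3 kb from the same region. The paralogous cluster on chromosome 9 had a single region, also wide, on an annotated start of its host gene Mir100hg. It was 56.7 kb from Mir100, 62.0 kb from Mirlet7a-2 and 107 kb from Mir125b-1. Let-7 microRNAs hold back growth and stem cell factors, and miR-125b is related to lin-4 of worms.

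**Figure D1:**
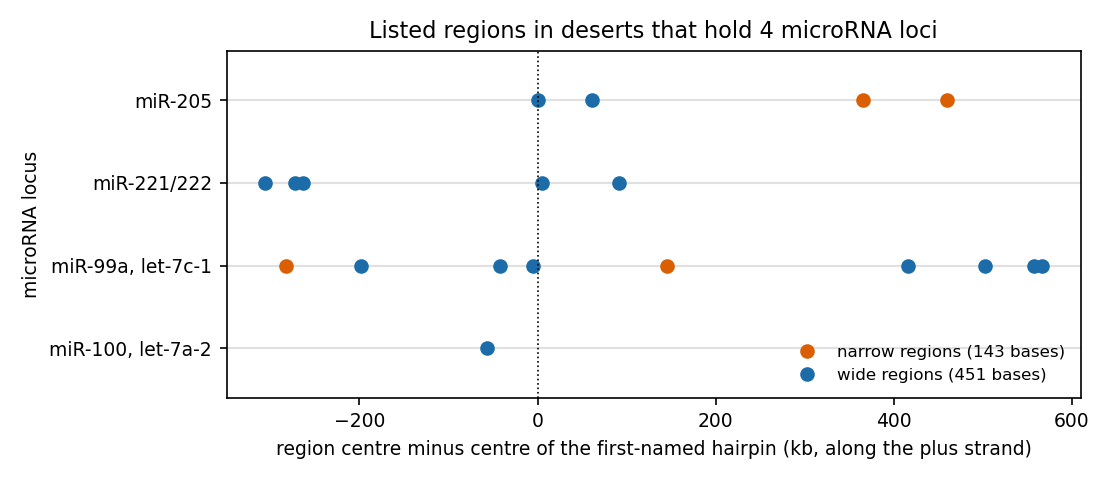
Position of each listed region relative to a microRNA hairpin (horizontal axis, kb along the plus strand; dotted line at the hairpin) in 4 deserts, 1 row each, with narrow regions in orange and wide regions in blue. A wide region lies within 6 kb of the hairpin in the first 3 rows, and the single region of the miR-100 desert lies 56.7 kb before it.

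Of the 118 microRNA genes counted in desert cores, 80 were in a desert with a listed region. These 80 lay in only 32 deserts, and a large part of them in a single one, between Rtl1 and Dio3. The only listed region of that desert, a narrow one, was 409 kb or more from each of them. Of the 118 genes, 9 had a region within 10 kb (7.63%, interval 3.55 to 14.0). The share of desert core bases within 10 kb of a region was 2.17%. Within 50 kb the values were 13 genes (11.0%, interval 6.0 to 18.1) and 8.65% of bases. MicroRNA genes occur in clusters, so these are not independent, and Mir221 with Mir222 and Mir99a with Mirlet7c-1 share a region each. Besides Mir205, another of the 9, Mir101c, had a narrow region 2.63 kb away, at the start of chromosome 9 before its first protein-coding gene, Alkbh8. Of the 915 regions, that one alone is bounded by a gene on a single side. Mir101c is thus counted with the cores although these are defined between genes.

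Only where a desert region overlaps the annotated start of a gene does RefSeq's table of start windows (250 bases before to 50 after) give its sequence. This held for 10 regions, 9 wide and 1 narrow, on the chromosomes that the table covers, all but 18. The sequences show the shared part of region and window for 4 of them, 5′ to 3′ on the strand of the gene. They are an annotated start inside the span of Mir100hg, the start of a non-coding gene in the Lmo4 desert, and the start of Gm32865 on chromosome 16. The remaining sequence is a whole narrow region at the paired starts of Gm33398 and Gm33323 in the desert between Wdr11 and Fgfr2. Capitals mark matches to a fixed set of motifs on either strand, listed after the sequences.
Mir100hg, chr9:41474643-41474942, plus strand: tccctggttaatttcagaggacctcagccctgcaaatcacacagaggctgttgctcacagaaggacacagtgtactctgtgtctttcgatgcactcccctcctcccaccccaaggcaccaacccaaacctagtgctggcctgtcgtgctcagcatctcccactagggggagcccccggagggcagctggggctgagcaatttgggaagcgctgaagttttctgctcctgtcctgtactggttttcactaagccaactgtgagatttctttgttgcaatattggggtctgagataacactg
Gm33867, chr3:143743028-143743327, plus strand: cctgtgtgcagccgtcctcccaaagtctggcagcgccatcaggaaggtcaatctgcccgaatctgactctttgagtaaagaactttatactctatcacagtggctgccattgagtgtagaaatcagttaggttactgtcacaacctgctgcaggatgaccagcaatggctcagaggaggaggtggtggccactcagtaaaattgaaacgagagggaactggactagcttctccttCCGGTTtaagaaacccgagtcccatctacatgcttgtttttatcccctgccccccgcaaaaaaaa
Gm32865, chr16:87128390-87128662, minus strand: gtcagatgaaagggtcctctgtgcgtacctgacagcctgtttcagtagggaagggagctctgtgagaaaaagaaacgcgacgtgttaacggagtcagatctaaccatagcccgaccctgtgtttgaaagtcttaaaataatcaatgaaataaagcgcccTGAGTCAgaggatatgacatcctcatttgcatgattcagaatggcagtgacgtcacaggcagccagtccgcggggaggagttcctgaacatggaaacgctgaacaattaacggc
Gm33398, chr7:129764646-129764788, minus strand: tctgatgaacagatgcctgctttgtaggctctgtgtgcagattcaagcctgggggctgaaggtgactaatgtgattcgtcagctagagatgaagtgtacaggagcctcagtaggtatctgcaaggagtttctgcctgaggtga

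The motifs used here were TGACTCA (AP-1), GGAATG (TEAD), AACCGG (Grainyhead), TGTGGT (RUNX), CCGGAAGT (ETS), CACGTG (E-box), and the longer NF-kB and CTCF motifs. Both strands were searched, and no printed stretch held more than 1 of the motifs. The Gm32865 stretch held an AP-1 match, which 4.8% of all 32851 start windows hold in the same stretch. The Gm33867 stretch held a Grainyhead match (6.83% of windows). The stretches of Mir100hg and Gm33398 matched none of these exact strings. For CTCF the search used 1 fixed string, which only 0.11% of windows hold in the same stretch as Mir100hg. Sites that differ from a string by a base or more were not tested, so the lack of a match does not exclude a similar site. The Gm32865 stretch was 48.4% G and C and that of Mir100hg 53.7%. A match describes letters only and is no evidence that a factor binds.

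From 50 kb outward, listed regions thinned out with distance from protein-coding genes, and beyond 250 kb narrow regions were sparser than wide ones. Nearer to genes the order varied. Inside genes there were 1.46 narrow and 1.54 wide regions per Mb, and within 2.5 kb of a gene end 2.12 and 2.42. At 2.5 to 10 kb there were 1.45 and 1.24, and at 10 to 50 kb 1.59 and 1.29, so narrow regions were the denser ones there. At 50 to 100 kb the values were 1.14 and 1.15. At 100 to 250 kb from the nearest gene the densities were 0.811 (interval 0.716 to 0.916) and 0.945 per Mb (0.842 to 1.06). At 250 to 500 kb they were 0.427 (0.347 to 0.521) and 0.702 (0.598 to 0.819). Over 500 kb they were 0.132 (0.0899 to 0.188) and 0.252 (0.192 to 0.325). Beyond 500 kb there were 1.90 wide regions for each narrow one. Over all 785 Mb of desert core, narrow regions were 2.98 times and wide regions 2.17 times sparser than in the rest of the genome between first and last genes. On autosomes alone the desert densities were 0.568 and 0.739 per Mb. The set of all accessible regions was not used here, so the densities describe the list alone.

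**Figure D2:**
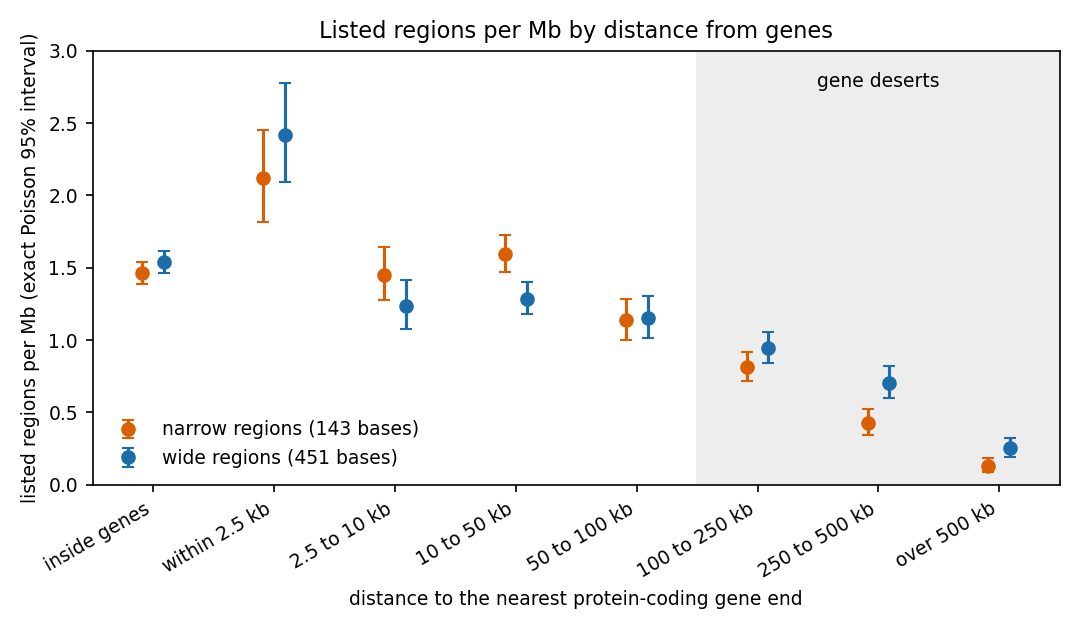
Listed regions per Mb of sequence (vertical axis) inside genes and by distance to the nearest protein-coding gene end (horizontal axis), with points for the density and bars for the exact Poisson 95% interval, narrow regions in orange and wide regions in blue. Both widths fall across the shaded desert classes, from 0.811 to 0.132 per Mb for narrow and from 0.945 to 0.252 for wide regions.

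A smaller share of regions was narrow in deserts than in the rest of the list. The share was 42.7% in deserts (391 of 915, interval 39.5 to 46.0) and 50.5% elsewhere (2819 of 5586, 49.1 to 51.8). The difference of -7.73 percentage points had an adjusted p of 4.7e-05 (Fisher's exact test, two-sided, Benjamini-Hochberg over 6 comparisons of width). Against regions outside genes at 2.5 to 100 kb, of which 53.6% were narrow, it was -10.9 points (adjusted p = 2.2e-07). Regions in the same desert are not independent: with each desert counted once by its first region, the difference from elsewhere was -4.81 points and did not pass (adjusted p = 0.11), while that from the flanking regions did (-7.98 points, adjusted p = 0.013). Within deserts, 37.1% of the 350 regions over 250 kb from a gene were narrow, against 46.2% of the 565 closer ones (adjusted p = 0.011). That contrast was 39.7% against 47.7% with each desert counted once and did not pass (adjusted p = 0.24). With every annotated gene in place of protein-coding ones its direction turned, at 70.0% of 10 regions against 37.6% of 133 (adjusted p = 0.11).

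The shift was not uniform over chromosomes, and the comparison above pooled them without adjusting for their different narrow shares. The narrow share was lower in deserts than elsewhere on 13 of 20 chromosomes. Chromosome 11 had the widest gap, with 40.6% in its 32 desert regions (interval 23.7 to 59.4) and 76.2% elsewhere. Chromosomes 13 and 12 went the other way, with 45.7% against 30.0% and 58.8% against 40.6%. Chromosome 19 had 15 narrow and 3 wide regions in its deserts, and its share elsewhere was also high, at 70.0%. On chromosome X, 4 of 26 desert regions were narrow (15.4%, interval 4.36 to 34.9), against 43.5% on autosomes (Fisher's exact test, adjusted p = 0.0083). The X share was also low outside deserts, at 20.4%. Desert regions were densest on chromosomes 13 and 10, at 2.42 and 2.27 per Mb of core. Chromosome Y had none in 47.3 Mb, which by counting error alone allows up to 0.0780 per Mb of each width. Outside deserts Y had only 2 regions of the fixed widths, and how much of Y reads can cover was not tested.

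**Figure D3:**
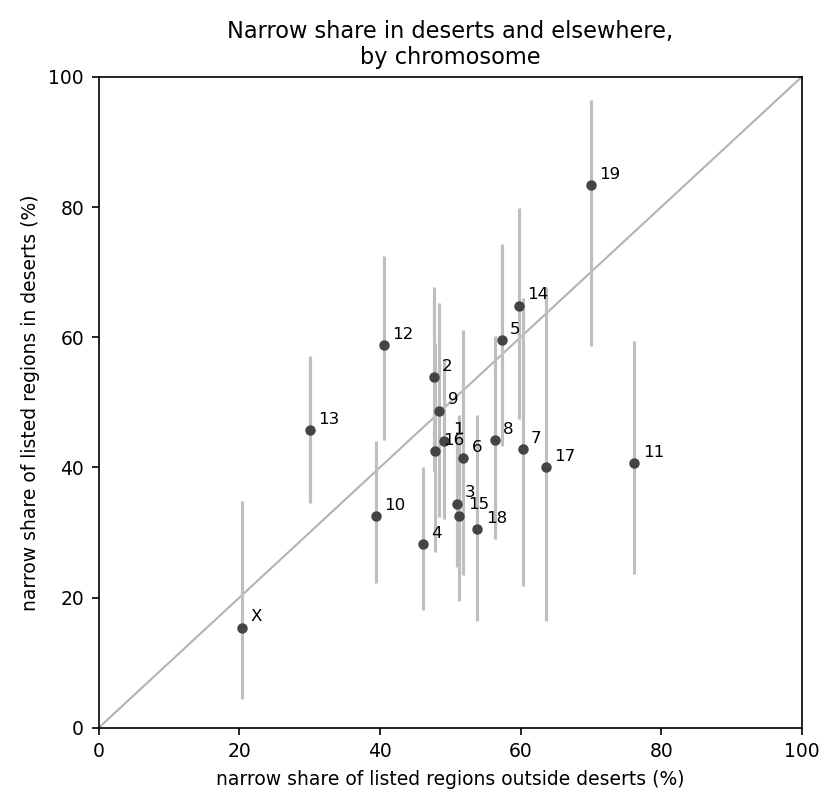
Share of narrow regions among the listed regions in deserts (vertical axis, percent, bars for the exact 95% interval) against the share outside deserts (horizontal axis, percent), 1 point per chromosome, with the line of equal shares. Chromosomes 11, 17 and 18 lie far below the line and chromosomes 12, 13 and 19 above it.

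By the rule, all members lay over 100 kb from protein-coding genes, and the distances beyond that are a description. The median distance to the nearest protein-coding gene end was 193 kb for narrow regions (quartiles 137 and 290 kb) and 218 kb for wide regions (152 and 372 kb). The deserts around them had median lengths of 788 and 846 kb. No protein-coding gene started within 500 kb of 43 narrow regions (11.0%) and of 85 wide ones (16.2%). Over 1 Mb from any protein-coding gene lay 12 members. The farthest was a narrow region 1284 kb from Kcnt2, a potassium channel gene (chromosome 1, 141898075 to 141898217). Next came a pair of narrow regions 0.529 kb apart, 1215 kb from Cited2 (chromosome 10, 16507756 to 16508427), and wide regions near Ndufa4, a respiratory chain gene, and Crim1, which encodes a BMP-binding membrane protein. The threshold cut through a continuous range. The members nearest to it were at 100.01 kb (between Dyrk2 and Cand1), 100.23 kb (Ctnna3 and Reep3) and 100.53 kb (Sphkap and Pid1). Just outside were regions at 99.95, 99.86 and 99.61 kb, near Tbl1x, Vgll3 and Khdrbs2 or Prim2. There were 57 members up to 110 kb and 72 regions outside genes at 90 to 100 kb.

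Of 1689 deserts over 200 kb long that lie between genes, 448 held at least 1 region (26.5%). The share grew with length, from 8.95% of those of 200 to 300 kb to 38.6% at 500 kb to 1 Mb and 48.2% over 2 Mb. Density went the opposite way, from 2.34 to 0.389 regions per Mb of core. The 5 longest deserts with a region held 1 to 3 each. These were Pcdh20 to Pcdh9 (4542 kb), Celf4 to Pik3c3 (4511 kb), Dsel to Cntnap5a (3820 kb), Zeb2 to Acvr2a (3697 kb) and Pcdh7 to G6pd2 (3676 kb).

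A single region was found in 230 deserts, and 218 held several. Of the latter, 54 held narrow regions only, 77 held wide regions only and 87 held both. The most, 12, lay between Nmbr, a bombesin-family receptor gene, and Cited2, a transcriptional co-regulator gene. Of these, 5 were narrow and 7 wide, and 4 clustered 160 to 204 kb from Cited2, inside the non-coding gene Gm32543. The desert between Usp25 and Cxadr, which encodes a junctional adhesion protein, held 9. Deserts with 8 were Myc to Gsdmc, Agtr1b to Tbl1xr1, Zfp608 to Gramd3, Adam34l to Fat1, and Plk2 to Actbl2. Deserts with 7 included Slc10a2 to Efnb2, Lmo4 to its neighbour 4930519L02Rik, and Il7 to Stmn2. Regions could lie mostly toward a single bounding gene. In the Slc10a2 to Efnb2 desert of 3512 kb, 6 of 7 lay in the part next to the ephrin gene Efnb2.

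**Figure D4:**
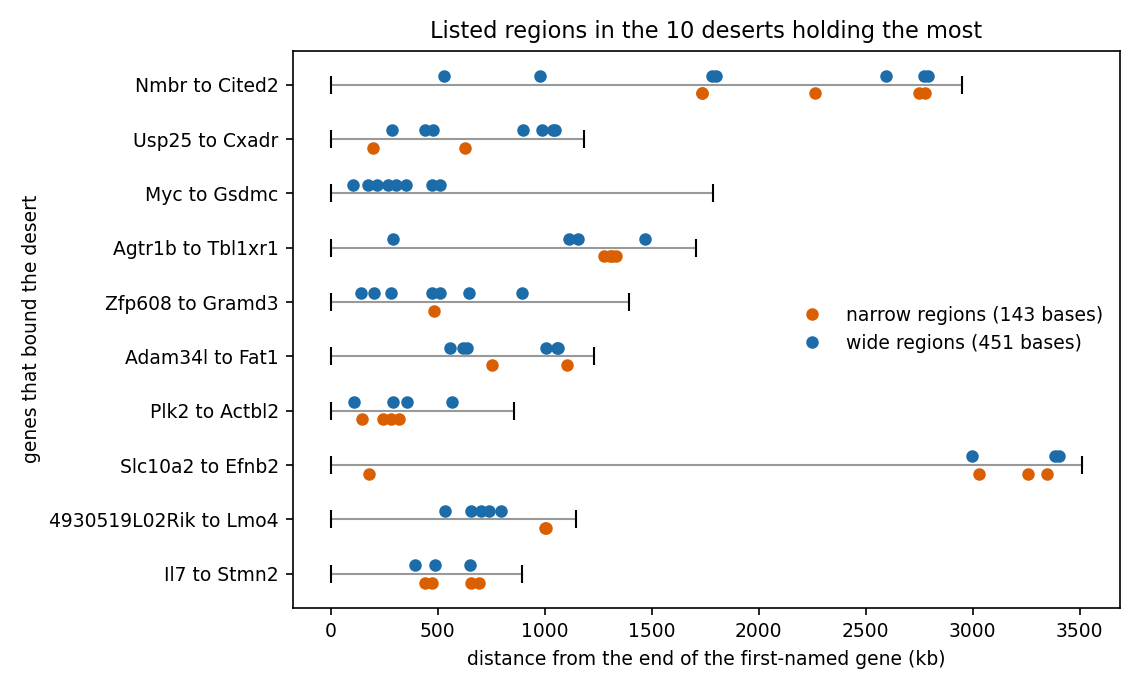
Listed regions in the 10 deserts with the most, 1 row per desert, placed by distance from the end of the first-named gene (horizontal axis, kb), with black ticks at the bounding genes, narrow regions in orange below the line and wide regions in blue above it. All 8 regions between Myc and Gsdmc are wide and lie within 511 kb of Myc.

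Some deserts with many regions were of a single width. Of the 62 with 4 or more, 13 held wide regions only, 9 held narrow regions only and 40 held both. Both deserts that border Myc, a growth-driving transcription factor gene, were of the first kind. The 8 regions between Myc and Gsdmc lay 102, 172, 214, 268, 305, 353, 472 and 511 kb from Myc, and the nearest 4 were inside the non-coding gene Pvt1. The 6 between A1bg and Myc lay 299 to 778 kb from it. Sox9 and Klf5, epithelial transcription factor genes, bounded deserts with narrow regions only. For Sox9 they lay at 213, 287, 314 and 316 kb on chromosome 11, 3 of them inside the non-coding gene 2610035D17Rik. For Klf5, whose desert is shared with Klf12, they lay at 137, 301, 311 and 381 kb. The narrow share in deserts and elsewhere was 40.6% and 76.2% on chromosome 11, and 64.9% and 59.7% on chromosome 14, which holds Klf5. On chromosome 15, which holds Myc, it was 32.6% and 51.3%.

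Neighbouring regions often matched in width, most of all at short range. Of 52 adjacent pairs up to 10 kb apart in a desert, 46 had equal width (88.5%, interval 76.6 to 95.6), 23 pairs of each width. At 10 to 50 kb it was 70.1% of 134 pairs and over 200 kb 65.7% of 102 (interval 55.6 to 74.8). Very close pairs were mostly narrow: all 5 pairs within 1 kb, and 14 of 17 within 5 kb. Of the 5, 3 were centred less than 0.451 kb apart, a spacing that separate wide regions cannot have. The closest were centred 0.344 kb apart, between Kif26a and A530016L24Rik. A neighbour within 10 kb was found for 12.8% of narrow (interval 9.64 to 16.5) and 9.92% of wide desert regions (7.5 to 12.8). Elsewhere in the list it was found for 16.1% and 8.85%. The narrow share of desert regions with and without such a neighbour, 49.0% and 41.9%, did not differ past the threshold (Fisher's exact test, adjusted p = 0.24).

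Many desert regions lay in non-coding genes. The centre was inside such a gene for 190 of 915 (20.8%, interval 18.2 to 23.5), while such genes cover 11.1% of desert core bases. Nearly all were long non-coding RNA genes, with 184 regions (20.1%) against 9.29% of bases. By width it was 20.5% of narrow and 21.0% of wide regions, with no difference past the threshold (narrow share inside against outside -0.791 points, Fisher's exact test, adjusted p = 0.87). The genes with the most were 2610307P16Rik beside Sox4, Pvt1 beside Myc and Gm32543 beside Cited2, with 4 each. With 3 each came 1700123O12Rik in the desert of the BMP-family gene Gdf6, Gm20757, and 2610035D17Rik beside Sox9. Of the 879 desert regions on chromosomes in the start table, 16 were centred within 1 kb of a non-coding start (1.82%, interval 1.04 to 2.94), against 0.499% of core bases. By width it was 12 of 499 wide regions (2.40%, 1.25 to 4.16) and 4 of 380 narrow ones (1.05%, 0.288 to 2.67).

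Genes at the borders of deserts were read through 12 lists, chosen with earlier results of these data known, and described by counts alone. Of 21887 protein-coding genes, 3.85% bound a desert with a listed region. Of the 2811 that bound any desert, 30% bound one with a region, 17.1% one with a narrow region and 19.7% one with a wide region. This background depends on length: it was 9.85% where the longest desert beside a gene was 200 to 300 kb, 42.2% at 500 kb to 1 Mb and 51.9% over 2 Mb.

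Among developmental transcription factors, 57 of 74 genes bounded a desert, and 33 of these 57 (57.9%) bounded one with a region, 19 with a narrow and 26 with a wide region. Their deserts were long, with a median of 691 kb against 439 kb over all bounding genes. In the class of 500 kb to 1 Mb it was 17 of 25 genes (68.0%), against 42.2% of all. Genes that share a desert were counted separately, in the list and in the background, so they are not independent. Irx3 and Irx5, for example, share a desert of 556 kb and its only region, which lies 121 and 435 kb from them. Lmo4, Nfib and Irx1 had 7 regions each and Sox4 had 5. Lmo4 encodes a LIM-only cofactor of epithelial transcription, Nfib a nuclear factor I protein, Irx1 an Iroquois homeobox factor and Sox4 an SRY-related factor. The regions of Irx1 lay in deserts on either side of the gene. Gata3, a luminal and T cell transcription factor gene, had 5 regions, the nearest at 139 kb and the farthest at 1186 kb. Klf4, which encodes an epithelial barrier factor, also had 5, all over 581 kb away. Most of these lay nearer to Actl7b, at the other end of the desert. Bcl11a had 5 as well, all wide. Trp63, the basal lineage factor p63, had a single wide region (chromosome 16, 25529645 to 25530095), 154 kb from it and 106 kb from Tprg.

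Of secreted morphogens and growth factors, 14 of 32 bounding genes (43.8%) had a region in their desert, beside 30% of all bounding genes. Bmp2, Bmp4, Pdgfc and Dkk2 had 3 each, the nearest at 109, 126, 154 and 166 kb. Bmp2 and Bmp4 encode bone morphogenetic proteins, Pdgfc a platelet-derived growth factor and Dkk2 a Wnt antagonist. Axon guidance and adhesion genes bounded the longest deserts, with a median of 1924 kb, and 29 of 58 (50.0%) had a region. In the class over 2 Mb that was 17 of 28 (60.7%), beside 51.9% of all genes. Efnb2 had 7 regions, Sema3d 6, and Sema3a and Slit2 4 each. Sema3d and Sema3a, which encode secreted semaphorins, share a desert.

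Of the Notch, Wnt and stem cell genes, 8 of 15 (53.3%, beside 30% of all bounding genes) had a region. All 8 had wide regions and 2 also narrow ones. Besides Myc, with 14, these were led by Jag1, a Notch ligand gene of basal cells, with 3 wide regions and 1 narrow. Its nearest region was 109 kb away. Mycn and Lef1 had 2 each.

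Of 67 interleukin and chemokine genes and receptors, 14 bordered a desert (20.9%, against 12.8% of all protein-coding genes). A region was present for 6 of these 14 (42.9%), beside 30% of all bounding genes. Il7, a lymphoid survival cytokine gene, had 7, 4 narrow and 3 wide, with the nearest 393 kb away. Most of the 7 lay nearer to Stmn2, at the other end of the desert. Osmr and Lifr, receptor genes for cytokines of the IL-6 family, share a desert of 216 kb with a single wide region (chromosome 15, 6981191 to 6981641), 106 and 109 kb from them. Tnfrsf11b, which encodes the RANKL decoy receptor, had a narrow region 136 kb away. Of 30 NF-kB genes, 4 bordered a desert (13.3%) and 3 had a region, which is too few genes to compare with the 30%. Nfkbiz, an inducible IkB-family gene, had 3 narrow regions at 179, 278 and 285 kb. Tnfaip3, which encodes the inhibitor A20, had a wide region 171 kb away, and Map3k7, the TAK1 kinase gene, another 537 kb away. In the AP-1 list, 2 of 5 bounding genes had a region (40%, beside 30% of all), Maf with 3 wide regions and Jun with 1 narrow region.

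Among all genes that bound a desert, 30% had a region there, a share that rose with desert length. Of the basal markers 3 of 8 (37.5%) had a region, namely Jag1, Egfr (1 wide region) and Trp63. Jag1 bounds a desert of 1140 kb, and in the class of 1 to 2 Mb 48.2% of all bounding genes had a region. Of the luminal markers only 2 bounded a desert, and neither had a region. Of leukocyte markers 1 of 2 had regions (Ptprc, with 3), of endothelial markers 2 of 4 (Cdh5 with 3, Sox17 with 1), and of fibroblast and smooth muscle markers 3 of 6 (Dcn, Pdgfra and Fn1, with 2 each). The list has no signal per library, so what these cells contribute was not tested.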

How the data were processed

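Chromatin accessibility was measured by ATAC-seq in 6 libraries, 3 naive and 3 inflamed, that enter 1 merged list of regions. The list was deposited by the authors with coordinates only, and its values carry no signal, fold or p-value. The submitters' processing notes name HOMER 4.8, edgeR, SAMtools and the aligner BWA (0.7.17-r1188), with build mm10. Their order, thresholds and filters are not given in the sources used here. Starts, counted from 0 in the deposited list, are printed from 1. Genes and start windows came from RefSeq tables of GRCm38.p6, whose chromosomes are those of mm10. The gene table gives spans without exons, so exon, intron and UTR positions are not stated.

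A desert is the stretch between neighbouring protein-coding gene spans where it exceeds 200 kb, and its core is the part over 100 kb from both. Coding genes numbered 21887. Shares carry Clopper-Pearson and densities exact Poisson 95% intervals. The 6 width comparisons used Fisher's exact test (SciPy 1.17.1, Python 3.11.15) with Benjamini-Hochberg adjustment. The code was tested on simulated data. One region of 235 bases, outside deserts, was left out of width comparisons. Most genes were named by rule: those bounding the deserts with the most regions, the longest deserts and the farthest regions, up to 4 per list, and the non-coding genes with the most regions. Gata3, Klf4 and Bcl11a were named outside this rule. MicroRNAs and single-width deserts were chosen after their positions were seen, as were Gm32865, Gm33867, Gm33398 and Gm33323. The members and lists were chosen with earlier results of these data known. Alternatives tried were other distances, gene sets, neighbour distances and ways of counting neighbours, and autosomes alone. One gene, the list that holds it and 1 motif are not reported here.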

Additional observations from a re-analysis of the deposited data

How the results depend on the processing

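The share of listed regions in deserts, 14.1%, was 21.9% with a distance of over 50 kb (1422 regions), 5.38% with over 250 kb (350), 1.38% with over 500 kb (90) and 2.20% when every annotated gene counted. Membership was 914 with both edges of a region over 100 kb away, 961 without predicted gene models and 863 with regions within 10 kb counted once. The difference in narrow share from elsewhere, -7.73 points, stayed negative in each of 9 alternatives. By Fisher's exact test it missed the threshold in 2 of them. These were -9.73 points with every annotated gene (adjusted p = 0.056) and -4.81 points with each desert counted once (adjusted p = 0.11). Why these 2 missed was not tested. In the other 7 it ran from -15.1 to -5.37 points, with adjusted p up to 0.014. Density in deserts moved with the distance: for narrow regions from 0.497 per Mb to 0.637 (50 kb), 0.278 (250 kb), 0.132 (500 kb) and 0.568 (autosomes), and for wide regions from 0.667 to 0.774, 0.475, 0.252 and 0.739. The share of deserts with a region was 24.4% with 50 kb. The share with a neighbour, 11.1% within 10 kb, was 3.61% within 5 kb and 36.9% within 50 kb, and that of equal-width pairs was 75.3% up to 50 kb. List genes beside a desert with a region numbered 105 of the 215 that bound a desert, and 54 of 135 with over 250 kb. Over all protein-coding genes the counts were 843 of 2811 and 356 of 1254. No paired analysis was possible because values per library are not part of the list, and for that reason no replicate was left out either. The motif share over all desert regions was not run, as no genome sequence was used here.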
